A study of Mus musculus with 4 samples.

Results

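The 10 genes described here are 5 WNT ligands (Wnt3, Wnt4, Wnt7b, Wnt10a and Wnt10b) and 5 secreted WNT inhibitors (Sfrp1, Dkk3, Wif1, Frzb and Sostdc1). They were taken by name from the 55536 genes of a count table, through the Ensembl identifiers of GENCODE M21 on GRCm38. RNA was sequenced from bulge cells, the resting stem cell compartment of the mouse hair follicle, in 4 skin samples. There were 2 libraries from mice carrying Cdh5CreERT2 with Alk1 flox/flox, in which tamoxifen removes Alk1 (Acvrl1) from cells that use the endothelial Cdh5 promoter, and 2 libraries from Cre-negative littermates. All mice were on a C57BL/6 background, received 100 µg of tamoxifen per g of body weight on postnatal day 17, and samples date from day 20. The deletion is directed at vessels and not at the bulge cells that were sequenced. The sources used here do not say whether controls carried the floxed alleles or whether a library pooled several mice. The p-values therefore rest on the spread between these 4 libraries. For each gene, edgeR estimates that spread partly from the other genes.

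WNT ligands are lipid-modified secreted proteins that bind Frizzled receptors together with Lrp5 or Lrp6 and keep β-catenin from being degraded. Some secreted inhibitors bind the ligand, as SFRP proteins and Wif1 do, and some block the Lrp co-receptors, as Sostdc1 does. Dkk3 is counted among the inhibitors by the list used here, and its action on WNT signals was not tested. In mouse skin, WNT signaling starts follicle growth, and the resting bulge is known for high levels of secreted inhibitors.

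Counts per library ran from 16326906 to 29130974, and 14259 genes had enough counts to be tested. The targeted gene Acvrl1 measured 17.9 and 23.1 CPM (counts scaled to the effective library size) in knockouts, against 21.6 and 24.3 CPM in controls (log2 fold change -0.16 ± 0.19 (SE), edgeR adjusted p = 0.76). This does not check the labels, since bulge cells are not where deletion was directed. All 12 bulge markers were counted in every library, with Krt15 at 35990 and 34753 CPM in knockouts and 29060 and 34366 CPM in controls. All 12 markers of differentiated interfollicular epidermis were counted too. Their summed level was 8690 and 4051 CPM in knockouts 1 and 2, against 13239 and 4522 CPM in controls 1 and 2. Replicate 1 was the higher of the pair in each group. Transcripts of differentiated epidermis thus differed between libraries of the same group by more than the group means did, and all 12 of these markers, Krt10 among them, were higher in replicate 1 in both groups. So were 7 of the 8 sebaceous gland markers.

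Promoter sequence is shown for Wnt3, Wif1 and Wnt10b, the 3 members with a RefSeq entry whose window lay clear of the gene model. Wnt3 varied most between libraries, and Wif1 was the member of largest fold change. The replicates of Wnt10b differed in opposite directions in the groups. Each window is the 200 bases from 250 to 51 before the RefSeq start of the gene (GRCm38.p6), written 5′ to 3′ on the gene's strand. Capitals mark CTTTG, the core of the motif bound by TCF and LEF factors, which carry the WNT response to DNA. Both strands were searched (CTTTG and CAAAG).
Wnt3 promoter: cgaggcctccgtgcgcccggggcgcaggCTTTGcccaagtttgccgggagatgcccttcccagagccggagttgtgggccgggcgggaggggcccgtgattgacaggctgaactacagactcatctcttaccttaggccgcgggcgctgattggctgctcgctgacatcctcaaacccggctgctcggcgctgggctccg
Wif1 promoter: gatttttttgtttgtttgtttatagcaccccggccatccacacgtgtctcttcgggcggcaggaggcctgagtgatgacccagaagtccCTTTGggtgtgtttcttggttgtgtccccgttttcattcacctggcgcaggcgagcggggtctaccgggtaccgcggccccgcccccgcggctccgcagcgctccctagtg
Wnt10b promoter: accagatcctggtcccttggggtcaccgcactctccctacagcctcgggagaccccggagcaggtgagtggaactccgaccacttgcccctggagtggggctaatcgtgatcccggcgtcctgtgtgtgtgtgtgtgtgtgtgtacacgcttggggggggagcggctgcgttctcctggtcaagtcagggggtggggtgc
The windows lie at chr11:103773925-103774124 (+ strand) for Wnt3, chr10:121033754-121033953 (+ strand) for Wif1 and chr15:98778201-98778400 (- strand) for Wnt10b. Wnt3 and Wif1 hold 1 match each and Wnt10b holds 0. Of 32851 such windows in the RefSeq table, 42.3% hold at least 1 match, so a match in these windows is common. A match is a string of letters and not a measured binding site.

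Dkk3, Sfrp1 and Sostdc1 were present at far higher levels than the ligands. Levels are compared per length, as FPKM (CPM per kilobase of exon), with the mean and SD over all 4 libraries. Dkk3, a divergent member of the Dickkopf family, stood at 322 ± 49 FPKM, Sfrp1, a decoy with a Frizzled-like domain, at 216 ± 36 FPKM and Sostdc1, an antagonist of both BMP and WNT signals, at 156 ± 27 FPKM. Wnt4 led the ligands at 13.2 ± 2.4 FPKM and was the highest of the 5 in each library. The order went on with Wif1 at 9.42 ± 2.58, Wnt10a at 8.80 ± 1.23, Wnt7b at 7.71 ± 1.98, Wnt3 at 5.18 ± 2.80 and Wnt10b at 0.996 ± 0.400 FPKM. Summed, the 5 listed inhibitors were 19.9 and 21.1 times the 5 ligands per length in knockouts, against 14.2 and 25.5 times in controls. The groups thus overlapped in this ratio, which has Dkk3 as its largest part and does not measure how far WNT signals are blocked. The ranges over libraries did not overlap between Sfrp1 and Sostdc1, between Sostdc1 and Wnt4, or between Wnt3 and Wnt10b. Every other pair of neighbours down to Wnt3 overlapped, Dkk3 and Sfrp1 included, although Dkk3 was above Sfrp1 in each of the 4 libraries.

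**Figure D1:**
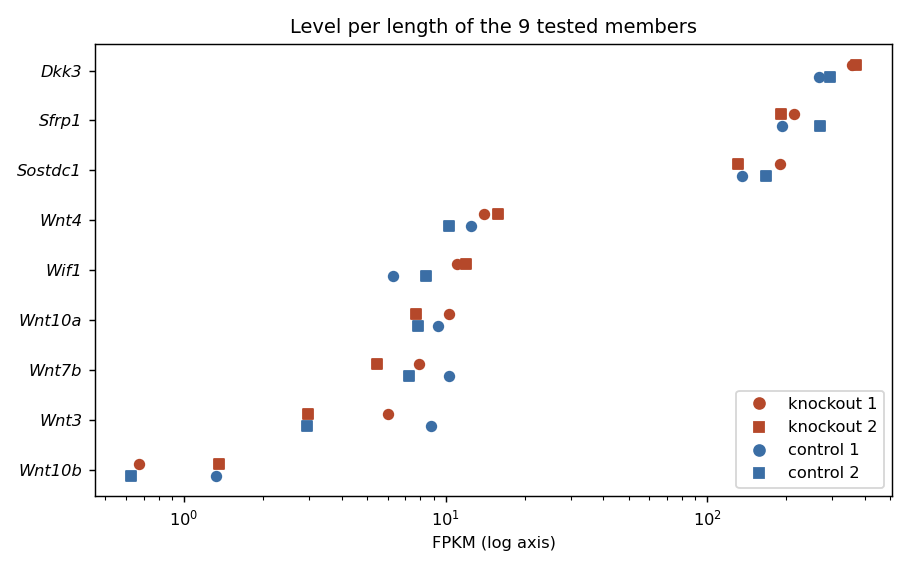
Level per length (FPKM, log axis) of the 9 tested members in each library, with knockouts drawn above controls for each gene. Dkk3, Sfrp1 and Sostdc1 lie between 131 and 370 FPKM, and the ligands and Wif1 lie at or below 15.9 FPKM.

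Frzb, a decoy of the SFRP family also known as Sfrp3 (chromosome 2, 80411970 to 80447625, GRCm38), was not detected. It had 0 and 0 counts in knockouts, against 1 and 0 counts in controls. A count of 0 allows up to 3 counts, which is 0.138 and 0.143 CPM in knockouts and 0.102 CPM in control 2, for counting error only. Frzb was too low to test, so 9 of the 10 members entered the comparison.

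The comparison of knockout with control asked whether loss of endothelial Alk1 changed these secreted signals in bulge cells. None of the 9 tested members passed an edgeR adjusted p of 0.05. By DESeq2 the count was also 0, against 0.802% of the 12600 genes it adjusted. Over all 14259 tested genes, 0.00701% passed in the same edgeR test. With the replicate number as a block it was again 0 members, against 0.743% of all genes. At an unadjusted p under 0.05 there were 3 members, Wif1, Dkk3 and Wnt4, which is 3 of 9 against 10.7% of all tested genes. In those same 3, both knockout libraries lay above both controls, against 21.3% of all tested genes. In 0 members did both knockouts lie below both controls, against 23.6% of all genes. The median log2 fold change of the 9 members was 0.08, against -0.02 for all tested genes.

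**Figure D2:**
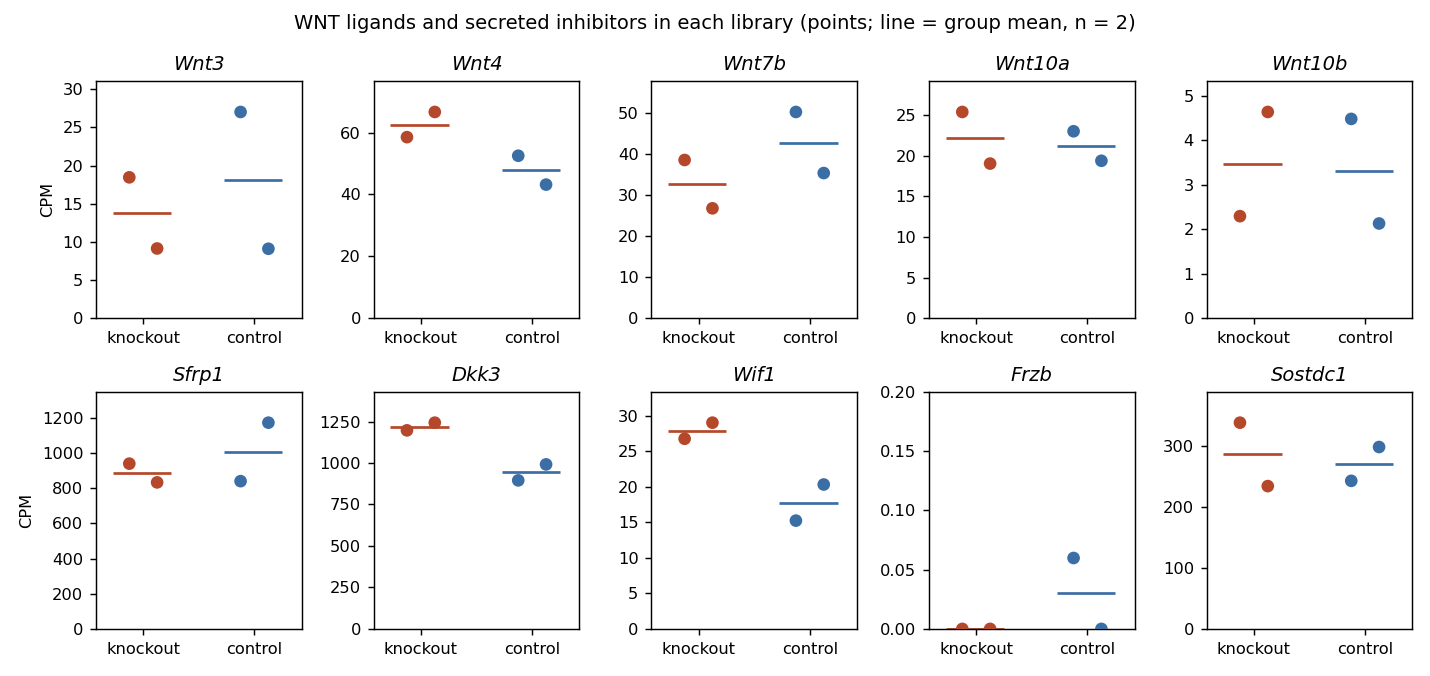
Expression (CPM, axes from 0) of the 10 members in each library, with knockout points left of control points and a line at each group mean (n = 2 per group). In Wif1, Dkk3 and Wnt4 both knockout points lie above both control points, in the other tested members the groups overlap, and Frzb shows a single count in control 1.

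Among the inhibitors, Wif1, which binds WNT ligands directly (chromosome 10, 121033960 to 121100650), measured 26.8 and 29.0 CPM in knockouts, against 15.2 and 20.3 CPM in controls. Both knockouts were above both controls. The mean was 27.9 ± 1.6 CPM in knockouts and 17.8 ± 3.6 CPM in controls (SD, n = 2 each). The log2 fold change was 0.64 ± 0.19 (SE), 1.56-fold higher in knockouts, and missed the threshold (edgeR adjusted p = 0.43). This was the largest fold change among the 9 members. Over the alternative fits it stayed between 0.46 without control 1 and 0.89 without control 2, with adjusted p between 0.060 and 0.98.

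Dkk3 (chromosome 7, 112116017 to 112159057) gave 1197 and 1243 CPM in knockouts, against 895 and 992 CPM in controls. The groups did not overlap, and the difference was smaller than that of Wif1 in proportion. In log2 the difference was 0.37 ± 0.12 (edgeR adjusted p = 0.43). Wif1 and Dkk3 shared the same order of libraries, with knockout 2 highest, then knockout 1, control 2 and control 1. Dkk3 kept its direction in all 14 alternative fits, between 0.30 and 0.47.

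Sfrp1 (chromosome 8, 23411502 to 23449632) gave 940 and 833 CPM in knockouts, against 840 and 1173 CPM in controls. Control 2 alone was high, and the other libraries lay close together. This gave a log2 fold change of -0.18 ± 0.19 (edgeR adjusted p = 0.73), and of 0.10 without control 2. Sostdc1 (chromosome 12, 36314139 to 36318452) measured 337 and 234 CPM in knockouts, against 242 and 298 CPM in controls. The knockouts enclosed both controls, so no difference between groups stands out from the spread (log2 fold change 0.08 ± 0.21, edgeR adjusted p = 0.90). Its value was -0.06 without control 1 and -0.21 without knockout 1. Of the 4 tested inhibitors, Wif1 and Dkk3 had both knockouts above both controls. Over all tested genes the groups were apart in this way in 21.3% and in the other direction in 23.6%. With only 4 genes, the count of 2 describes these inhibitors and carries no test.

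Among the ligands, Wnt4, a ligand of epidermal and follicle keratinocytes (chromosome 4, 137277489 to 137299726), measured 58.5 and 66.7 CPM in knockouts, against 52.5 and 43.2 CPM in controls. Both knockouts were above both controls. Its log2 fold change was 0.39 ± 0.15 (SE; edgeR adjusted p = 0.45), with a mean of 62.6 ± 5.8 CPM in knockouts and 47.8 ± 6.6 CPM in controls (SD, n = 2 each). It ranged from 0.28 without control 2 to 0.54 without control 1.

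Markers of neighbouring cells stood as follows beside Wif1, Dkk3 and Wnt4. All 5 genes of the inner bulge and companion layer list were tested. They summed to 2039 and 1603 CPM in knockouts, against 1307 and 1267 CPM in controls. Of the 5, 3 were higher in both knockouts than in both controls, against 21.3% of all tested genes. The sum is mostly Krt17, which is among these 3, and Krt6a, which overlapped between groups. Krt6a had 1237 and 716 CPM in knockouts, against 702 and 739 CPM in controls. All 5 log2 fold changes were above 0, with a median of 0.44. The 8 hair germ and matrix genes summed to 278 and 321 CPM in knockouts, against 238 and 250 CPM in controls. Of the 6 of them that were tested, 4 were higher in both knockouts (Cdh3, Msx1, Msx2 and Krt71) and 0 lower in both. Over all tested genes these shares were 21.3% and 23.6%. The other 2, Dlx3 and Hoxc13, overlapped between groups, with log2 fold changes of -0.36 and -0.25. Among the untested, Krt27 had 10 and 17 counts in knockouts, against 2 and 2 counts in controls. Krt35 had 0 and 0 counts in knockouts, against 0 and 2 counts in controls. The 6 genes of the upper follicle and infundibulum summed to 743 and 1079 CPM in knockouts, against 804 and 590 CPM in controls. Of the 6, 2 were higher in both knockouts. All 6 log2 fold changes were above 0, with a median of 0.31, while over all tested genes 6770 were above 0 and 7489 below. The 8 dermal fibroblast and papilla genes had no common direction, with 3 log2 fold changes above 0 and 3 below among the 6 tested and a median of 0.05. Their sum, 148 and 147 CPM in knockouts against 190 and 242 CPM in controls, is mostly Col1a1 and Col1a2, the 2 that were lower in both knockouts. Lum had 1 and 1 counts in knockouts and 0 and 0 in controls. The part of these cell types in the values of Wif1, Dkk3 and Wnt4 was not tested. In bulk samples fewer cells of a type and less RNA per cell cannot be told apart.

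Wnt7b, which signals through β-catenin at follicle activation in mouse (chromosome 15, 85535437 to 85582473), gave 38.6 and 26.8 CPM in knockouts, against 50.3 and 35.4 CPM in controls. Knockout 1 exceeded control 2, so the groups overlapped. Wnt7b had a log2 fold change of -0.39 ± 0.24 (edgeR adjusted p = 0.58), and between -0.68 without knockout 1 and -0.11 without control 1 when each library was left out. An antisense gene, AU022754, overlaps Wnt7b on the other strand. It held 60 counts over the 4 libraries, against 3287 for Wnt7b, and the sources used here do not give the strand setting of the counting.

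Wnt3, a canonical ligand (chromosome 11, 103774150 to 103817957), had 18.5 and 9.14 CPM in knockouts, against 27.0 and 9.10 CPM in controls. The lowest knockout and the lowest control were nearly equal, and the differences lay within each group. Its log2 fold change of -0.38 ± 0.55 (edgeR adjusted p = 0.81) had the widest error among the members. It was 0.60 without control 1, 0.05 without knockout 2, -0.94 without control 2 and -0.97 without knockout 1.

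Wnt10a, in which loss-of-function variants in humans disturb teeth, hair and skin appendages (chromosome 1, 74791516 to 74804179), gave 25.4 and 19.0 CPM in knockouts, against 23.0 and 19.4 CPM in controls (log2 fold change 0.07 ± 0.20, edgeR adjusted p = 0.91). The groups overlapped, and the sign turned without control 2 (-0.03) and without knockout 1 (-0.16). Wnt10b, a ligand linked to the start of follicle growth in mouse (chromosome 15, 98770712 to 98778150), was the lowest ligand here. It had 50 and 97 counts in knockouts, against 75 and 63 counts in controls, or 2.30 and 4.64 CPM against 4.49 and 2.13 CPM. Knockout 2 and control 1 were high while knockout 1 and control 2 were low. Between groups the log2 fold change came to 0.09 ± 0.51 (edgeR adjusted p = 0.96), with values of -0.50 without knockout 2 and -0.35 without control 2.

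Krt10, the keratin of suprabasal cells of interfollicular epidermis, served as the reading of differentiated epidermis in each library. It measured 4176 and 1766 CPM in knockouts, against 6672 and 1973 CPM in controls. Replicate 1 exceeded replicate 2 by 1.24 in knockouts and by 1.76 in controls (log2 CPM), while the log2 fold change between groups was -0.54 (edgeR adjusted p = 0.76). A gene was said to follow Krt10 where replicate 1 exceeded replicate 2 by at least 0.2 (log2 CPM) in both groups. This describes 2 differences and is not a test.

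Of the 9 tested members, 3 followed Krt10, all of them ligands, namely Wnt3, Wnt7b and Wnt10a. Over all tested genes the share was 8.37%. Wnt3 differed between replicates by 1.01 in knockouts and 1.56 in controls, Wnt7b by 0.52 and 0.51, and Wnt10a by 0.41 and 0.25. Wnt3 thus came nearest to Krt10 in size, while Wnt10a was close to the 0.2 bound in controls. Wnt7b also had the same order of the 4 libraries as Krt10, which 4.85% of tested genes had. At a bound of 0.5, Wnt3 and Wnt7b were left, against 3.57% of all tested genes. None of the 12 bulge markers followed Krt10, although Itga6 had its order of the 4 libraries, at differences of 0.13 in knockouts and 0.08 in controls.

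**Figure D3:**
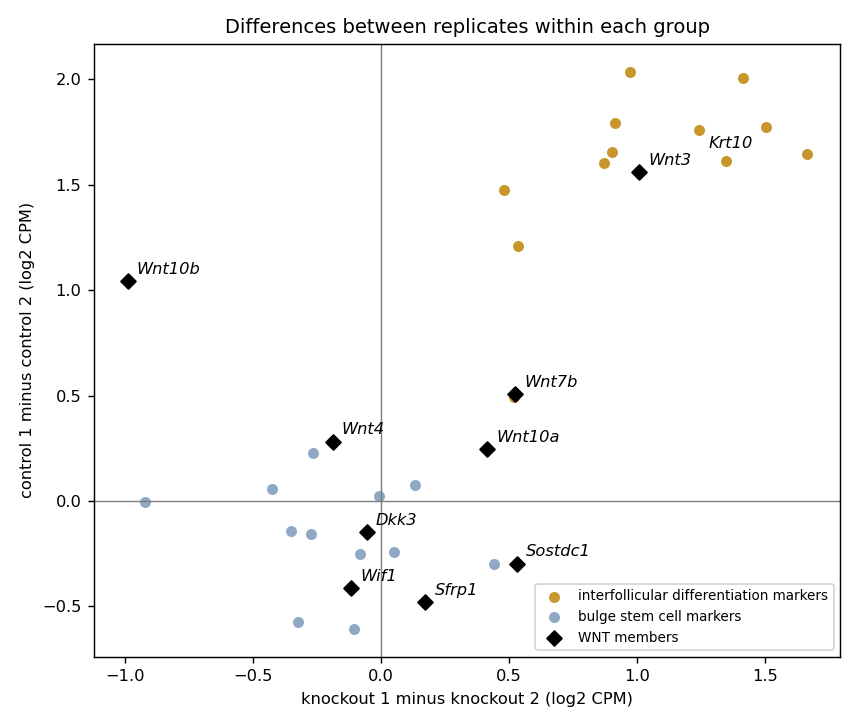
Difference between replicates 1 and 2 (log2 CPM) in knockouts on the horizontal axis and in controls on the vertical axis, for the 9 tested members, 12 interfollicular differentiation markers and 12 bulge markers. Wnt3, at 1.01 and 1.56, lies among the interfollicular markers, and Wnt7b and Wnt10a lie in the same quadrant at smaller values.

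The other members did not follow it. Dkk3 (-0.05 in knockouts and -0.15 in controls) and Wif1 (-0.12 and -0.41) were lower in replicate 1 in both groups. Neither reached the bound of 0.2 on both sides, so 0 of the 9 members ran opposite to Krt10, against 6.43% of all tested genes. Wnt4 (-0.19 and 0.28), Wnt10b (-0.99 and 1.04), Sfrp1 (0.17 and -0.48) and Sostdc1 (0.53 and -0.30) changed sign between the groups. The 3 members with knockouts above both controls, Wif1, Dkk3 and Wnt4, are thus not among those that follow Krt10.

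Counted against Krt10, Wnt3 was nearly level across the libraries. It had 4.42 and 5.17 counts per 1000 Krt10 counts in knockouts, against 4.05 and 4.61 in controls. The highest library was 1.28 times the lowest in this ratio, against 2.97 times in Wnt3 CPM. Wnt7b had 9.24 and 15.2 counts per 1000 Krt10 counts in knockouts, against 7.54 and 17.9 in controls. Its highest library was 2.38 times its lowest, against 1.88 times in CPM, so Wnt7b moved in the direction of Krt10 without keeping a fixed ratio to it.

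With the log2 CPM of Krt10 as a covariate in the fit, the log2 fold change of Wnt3 was 0.09 ± 0.23, against -0.38 ± 0.55 without it. Wnt7b was -0.25 with the covariate and Wnt10a 0.14. Wif1 was 0.58, Dkk3 0.34 and Wnt4 0.42, each close to its value without the covariate. No member passed the threshold in that fit, whose adjusted p was 0.55 for Wif1, and which leaves 1 residual degree of freedom. Of the 8 sebaceous gland markers, 7 also followed Krt10, and Soat1 and Mgst1 had the library order of Wnt3. What part material from epidermis or sebaceous gland had in the Wnt3 counts was not tested, since no library holds bulge cells without such transcripts.

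**Figure D4:**
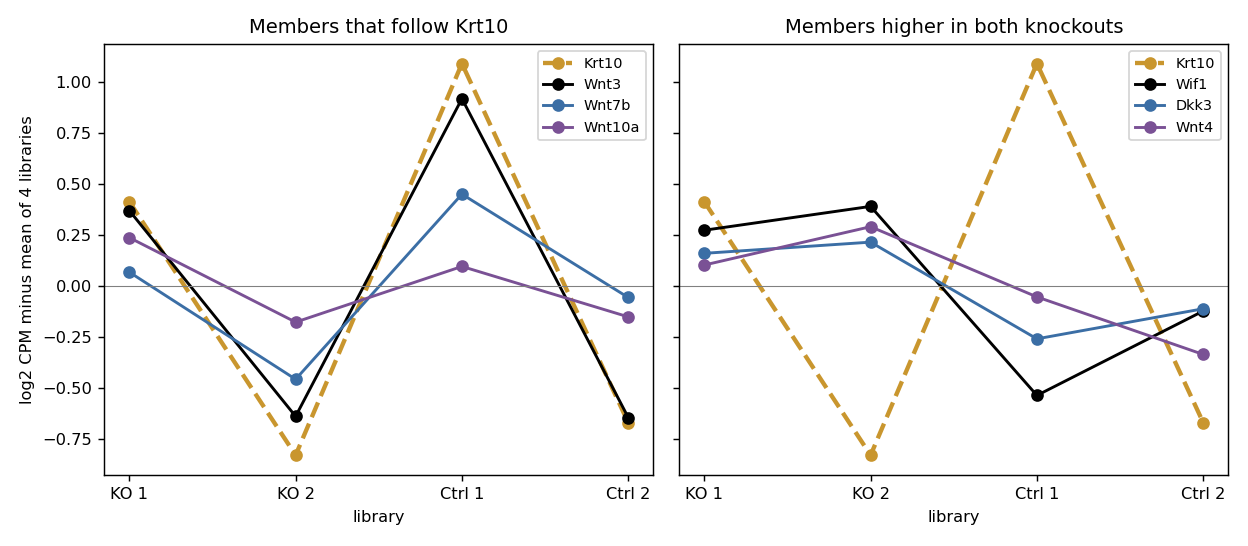
Log2 CPM minus the gene's mean over the 4 libraries, for Krt10 (dashed) beside Wnt3, Wnt7b and Wnt10a on the left and beside Wif1, Dkk3 and Wnt4 on the right. Lines only join the points of a gene. Wnt3 runs with Krt10, high in knockout 1 and control 1, and the 3 genes on the right are higher in both knockouts than in both controls.

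Genes were then ranked by how closely their profile over the 4 libraries matched that of Wnt3, the member of largest range (1.56 in log2 CPM). Likeness was the root mean square difference of log2 CPM after centring, over 9103 genes with a mean of at least 10 CPM. The 5 nearest were Lipm, a lipase of differentiating epidermis, at 0.019, Il1rn, the interleukin 1 receptor antagonist, at 0.032, Lypd5 at 0.034, Ttc9 at 0.039 and Anxa9 at 0.044. Lipm had 43.3 and 22.3 CPM in knockouts, against 64.7 and 22.0 CPM in controls. Krt10 itself ranked 40 with 0.13, and the median gene was at 0.69. With 4 libraries these distances describe the order of the libraries and carry no test.

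The rest of the pathway was read from lists of 73 further genes, of which 53 were tested. None passed the edgeR threshold. Both knockouts lay above both controls in 10 of the 53 and below both in 13, against 21.3% and 23.6% of all tested genes. At an unadjusted p under 0.05 there were 12 of the 53, against 10.7% of all genes. Of the 20 untested genes, 8 had 0 counts in every library, among them the inhibitors Dkk1, Dkk4, Sost and Cer1, the ligand Wnt2 and the agonists Rspo2 and Rspo4. At these depths 0 counts allow up to 0.102 to 0.179 CPM.

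Of 14 other ligands, 8 were tested, with 6 log2 fold changes above 0 and 2 below and a median of 0.22. Over all 14259 tested genes, 6770 were above 0 and 7489 below, which is the background for this count and for those of the other lists. Wnt5b, a non-canonical ligand and the highest of them per length, gave 24.6 and 33.1 CPM in knockouts, against 25.2 and 24.0 CPM in controls (log2 fold change 0.23 ± 0.18, edgeR adjusted p = 0.66). Knockout 2 alone was high, and without it the value was -0.00045. Wnt6, an epithelial ligand, gave 6.80 and 6.99 CPM in knockouts, against 5.44 and 4.26 CPM in controls (log2 fold change 0.51 ± 0.26, edgeR adjusted p = 0.51).

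Wnt11, a ligand of non-canonical signaling (chromosome 7, 98835112 to 98855195), had the highest log2 fold change among the 8 tested genes of this list. It was singled out after its values were known, and Wnt2b, at lower counts, had a larger difference in the other direction. It had 156 and 152 counts in knockouts, against 49 and 72 counts in controls, or 7.17 and 7.27 CPM against 2.93 and 2.44 CPM. The knockouts were close to each other and well above both controls. The log2 fold change was 1.43 ± 0.27, and the call depended on the tool. Wnt11 missed the threshold with edgeR (adjusted p = 0.43) and passed it with DESeq2 (adjusted p = 0.022), which called 0.802% of the genes it adjusted. With no count filter the edgeR adjusted p of Wnt11 was 0.0053, in a fit that called 1.79% of all genes. That fit gave Wif1 an unadjusted edgeR p of 0.0012, against 0.013 in the main fit, at a log2 fold change of 0.64 in both. A pass in it is therefore no separate support. Leaving out each library gave log2 fold changes of 1.32 to 1.57 for Wnt11.

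Of 13 other inhibitors, 3 were tested, all with log2 fold changes above 0. Igfbp4, an IGF-binding protein that also antagonizes WNT receptors, gave 321 and 433 CPM in knockouts, against 341 and 363 CPM in controls (log2 fold change 0.10 ± 0.17, edgeR adjusted p = 0.84). Apcdd1, a membrane-bound inhibitor of hair follicles, gave 58.7 and 74.2 CPM in knockouts, against 85.1 and 40.8 CPM in controls (0.08 ± 0.34, edgeR adjusted p = 0.94). In both genes one group enclosed the other. Without knockout 2 Igfbp4 was at -0.13 and Apcdd1 at -0.09, and without control 2 Apcdd1 was at -0.33.

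The secretion and agonist list had 7 tested genes, with 4 log2 fold changes above 0 and 3 below and a median of 0.26. Both knockouts lay above both controls in 4 of them and below both in 2, against 21.3% and 23.6% of all tested genes. Wls, the carrier that takes WNT proteins to the cell surface, measured 221 and 243 CPM in knockouts, against 190 and 197 CPM in controls (log2 fold change 0.26 ± 0.12, edgeR adjusted p = 0.49). Tmed2, a cargo protein of the early secretory pathway, gave 115 and 113 CPM in knockouts, against 87.8 and 87.1 CPM in controls (0.38 ± 0.11, edgeR adjusted p = 0.43). In both, knockouts lay above controls without overlap.

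All 20 receptors and co-receptors were tested, with 14 log2 fold changes below 0 and a median of -0.12. Fzd2, a Frizzled receptor and the highest per length, measured 544 and 557 CPM in knockouts, against 501 and 540 CPM in controls (log2 fold change 0.08 ± 0.12, edgeR adjusted p = 0.81). Fzd7, another Frizzled receptor, gave 466 and 483 CPM in knockouts, against 604 and 596 CPM in controls (-0.34 ± 0.12, edgeR adjusted p = 0.43). The 2 knockouts of Fzd7 lay below both controls.

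Of the 16 feedback and target genes, 15 were tested, with 12 log2 fold changes below 0 and a median of -0.22. Lgr4, an R-spondin receptor, gave 330 and 294 CPM in knockouts, against 459 and 530 CPM in controls. Its log2 fold change of -0.66 ± 0.14 missed the threshold with edgeR (adjusted p = 0.43) and passed it with DESeq2 (adjusted p = 0.023). In edgeR without a count filter the adjusted p was 0.0023, which is no separate support, as with Wnt11. Lgr5, its paralog in follicle stem cells, gave -0.13 ± 0.16 (edgeR adjusted p = 0.77), and 0.04 without knockout 1. Tcf7, a nuclear effector of the pathway named after its values were seen, gave 12.8 and 15.1 CPM in knockouts, against 7.77 and 9.24 CPM in controls (0.71 ± 0.21, edgeR adjusted p = 0.43).

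**Figure D5:**
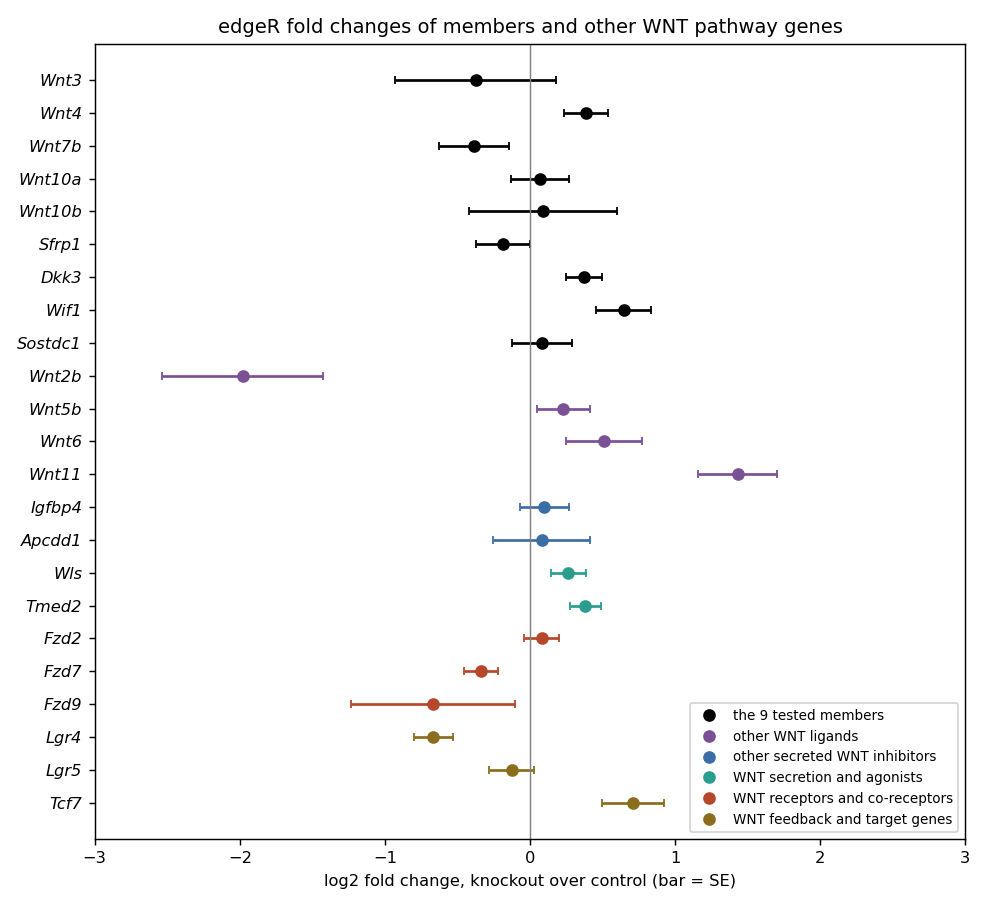
Log2 fold change of knockout over control with its SE (edgeR) for the 9 tested members and for named genes of the other pathway lists, coloured by list. Of the genes drawn, Wnt11 at 1.43 lies farthest above 0 and the low-count ligand Wnt2b at -1.98 farthest below, and the members run from -0.39 for Wnt7b to 0.64 for Wif1.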

How the data were processed

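The authors deposited raw counts per gene for 4 bulge libraries, per the labels. Per the submitters' processing notes, Trim Galore 0.6.0, cutadapt, FastQC, STAR 2.7.0e, GRCm38 (mm10) and DESeq2 1.26.0 were used. The sources used here name neither the counting tool nor its strand setting. Libraries were directional and polyA-selected, per the labels' protocols.

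All 55536 identifiers matched GENCODE M21. In R 4.3.3, edgeR 4.0.16 (filterByExpr, TMM, robust quasi-likelihood test, no covariate) compared knockout with control over 14259 genes, adjusted after Benjamini and Hochberg, at a threshold of 0.05. The SE is the log2 fold change over the root of F. Log2 CPM used a prior count of 2. FPKM used exon length. The edgeR fit was tested on simulated data. Replicates were not duplicates (chi-square per degree of freedom 41.9 in knockouts, 31.6 in controls). Alternatives included DESeq2 1.42.0 and voom in limma 3.58.1. The upper limits given for 0 counts cover counting error only.

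Members and lists were chosen with earlier results of these data known. All members were named, and from each other list the genes past the threshold or, with none, the 2 of highest level per length. Others were named after their values were seen. RefSeq promoter entries matched 5 of the 10 members, and 3 windows lay clear of the gene model.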

Additional observations from a re-analysis of the deposited data

How the results depend on the processing

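Of 9 tested members, 0 passed the threshold in any of the 14 alternative fits, and the lowest adjusted p was 0.060 (Wif1, no count filter). Wif1, Dkk3, Wnt4 and Wnt7b kept their direction in all 14. The number of all genes called was 1, against 430 without a count filter, 101 with DESeq2, 23 with the Krt10 covariate, 13 with the interfollicular list covariate and 2 with the length trend removed. Leaving out each replicate gave 1 to 65. A fit with a replicate block, although no label says that the numbers pair mice, called 106 genes and 0 members. Replicate differences in the groups correlated at 0.12 over tested genes, and the cause of these shifts was not tested.

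Wnt3 was 0.089 with the Krt10 covariate and 0.059 with the interfollicular list covariate, and Lgr5 was 0.050 with the length trend removed. Leaving out each replicate, log2 fold changes ran from -0.97 to 0.60 for Wnt3, -0.16 to 0.26 for Wnt10a, -0.50 to 0.70 for Wnt10b, -0.40 to 0.10 for Sfrp1, -0.21 to 0.32 for Sostdc1, -0.00045 to 0.42 for Wnt5b, -0.13 to 0.29 for Igfbp4, -0.33 to 0.70 for Apcdd1 and -0.31 to 0.035 for Lgr5. A lone sample in such a fit is assumed to vary like the other group. The count of members that follow Krt10 was 3, and 2 or 3 under the 5 other settings. With 2 libraries per group a high or low library cannot be assigned to error or to the animal, and Wnt10b rests on 50 to 97 counts per library.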

Other observations

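Some low or variable WNT genes were named after their values were seen. Wnt2b, a canonical ligand, had 6 and 5 counts in knockouts, against 13 and 37 counts in controls (log2 fold change -1.98 ± 0.55, edgeR adjusted p = 0.43). Leaving out each library gave -2.26 to -1.55. Both knockouts lay below both controls, at counts too low for a firm size. Fzd9, a Frizzled receptor, measured 83.5 and 22.4 CPM in knockouts, against 65.1 and 103 CPM in controls (log2 fold change -0.67 ± 0.57, edgeR adjusted p = 0.67). Knockout 2 alone was low, and knockout 1 lay between the controls. Leaving out each library, the log2 fold change of Fzd9 ran from -1.91 without knockout 1 to -0.013 without knockout 2.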
